A study of Homo sapiens with 6 samples.

Results

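The genes described here encode the cyclins, the cyclin-dependent kinases (CDKs), the cell division cycle (CDC) proteins, the subunits of the anaphase-promoting complex/cyclosome (APC/C) and the E2F transcription factors. They were taken from the table by symbol alone, by a rule that uses no values but was set with earlier results of these data known. It takes CCN followed by a letter and CDK or CDC followed by a digit (CDC42 and its relatives apart). It also takes every symbol that starts with ANAPC or E2F. This rule found 57 genes among the 8529 in the table. The RNA came from SW480, an established human colorectal cancer cell line with the genotype given as WT, grown for 72 h on hydrogels of 2 kPa (soft) or 25 kPa (stiff), with 3 libraries at each stiffness and no other treatment in either group. All 6 libraries came from this 1 line, and the labels say only that each stiffness was run in triplicate, so every p-value measures the spread between these libraries.

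Cyclins are unstable proteins that bind and switch on CDKs, and each stage of the cell cycle has its own pairs. D cyclins with CDK4 and CDK6 act in G1 and inactivate the retinoblastoma protein, which frees the activating E2F factors to transcribe genes for DNA synthesis. Cyclin E with CDK2 then drives entry into S phase, cyclin A acts in S phase and G2, and cyclin B with CDK1 drives entry into mitosis. The APC/C, a ubiquitin ligase switched on by CDC20 in mitosis, marks cyclin B for destruction and so ends mitosis. Many of these mRNAs oscillate with the cycle, so that a culture with more cells in G2 and mitosis holds more of the late ones. In a bulk sample, a larger share of cells in a phase and more RNA of that gene per cell cannot be told apart.

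Levels were deposited as FPKM, fragments scaled to the length of the transcript and the size of the library. They do not carry the number of reads, so each error is the standard deviation (SD) between libraries. The FPKM of a library summed to 201030 to 263028 with medians of 2.23 to 2.83, and no value was 0. The lowest sum and the highest median were those of 2 kPa replicate 2, which also had the lowest mean correlation with its group (0.977). It was the soft library farthest from the median of its group in 27 of the 57 genes, against 14 and 16 for replicates 1 and 3. On the stiff gel, replicate 2 was the farthest in 24. GAPDH, an abundant glycolytic enzyme in most cells, was listed at 0.32 to 3.35 FPKM, so a low listed value does not establish low expression. Of 11 markers of colorectal epithelium, 7 were in the table, led by KRT18 at 2992 ± 97.5 and 2875 ± 419 FPKM (SD, n = 3) at 2 and 25 kPa, and their sum was 4481 to 4811 FPKM at 2 kPa and 3690 to 4862 FPKM at 25 kPa. KRT19 (1562 ± 98.7 and 1132 ± 250 FPKM) and CDX2 (0.677 ± 0.110 and 0.217 ± 0.129 FPKM) were lower in every 25 kPa library, with limma adjusted p = 0.537 and 0.224. Of 11 markers of fibroblasts, immune cells and endothelium, LUM alone was in the table, at 0.08 to 0.55 FPKM over the 6 libraries.

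In the comparison of 25 kPa with 2 kPa, the main members that stood apart were cyclins A2, B1, B2 and E2, CDK2, CDC6, E2F2 and CDC20. E2F1, E2F8 and cyclin F also stood apart, but not under every scaling between libraries tried. Of the members that work in transcription or outside the cycle, CDC5L alone stood apart. No member passed the threshold of an adjusted p under 0.05 by limma, fitted to log2(FPKM + 1) of all genes with Benjamini-Hochberg adjustment, and 10 genes in the whole table did (0.117%). At an unadjusted p under 0.05, 11 members (19.3%) were higher at 25 kPa, against 6.96% of all genes. None was lower, against 3.19% of all genes. In 13 members (22.8%) every 25 kPa library lay above every 2 kPa library, against 11.2% of all genes, and in none did every 25 kPa library lie below, against 4.78%. The 13 separated members were CCNE2, CDK2, E2F1, E2F2, E2F8, CCNA2, CDC6, CCNB1, CCNB2, CCNF, CDC20, ANAPC7 and CDC5L, and all but E2F1 and E2F8 had an unadjusted p under 0.05. With 3 libraries against 3, an exact permutation test of a single gene cannot go below p = 0.1, which is the value of each of these 13.

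Over the 57 members the median log2 fold change was 0.18, against 0.05 over all genes, and 42 members (73.7%) were above 0, against 59.6% of all genes. By role the members differed. The roles were assigned with earlier results of these data known, so this split is a description with no test. Of the 30 members that act in G1, in S phase, at entry into mitosis, in the APC/C or as E2F factors, 26 had a log2 fold change above 0, with a median of 0.29, and 12 (40.0%) were separated. Among the other 27, which act in transcription, in other processes or as partners of these proteins, 16 were above 0, with a median of 0.05, and CDC5L alone was separated (3.7%). The median level at 2 kPa was 9.29 FPKM over the 30 members and 2.46 FPKM over the 27. The 95% interval of the log2 fold change spanned 0 in 46 of the 57 members.

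**Figure D1:**
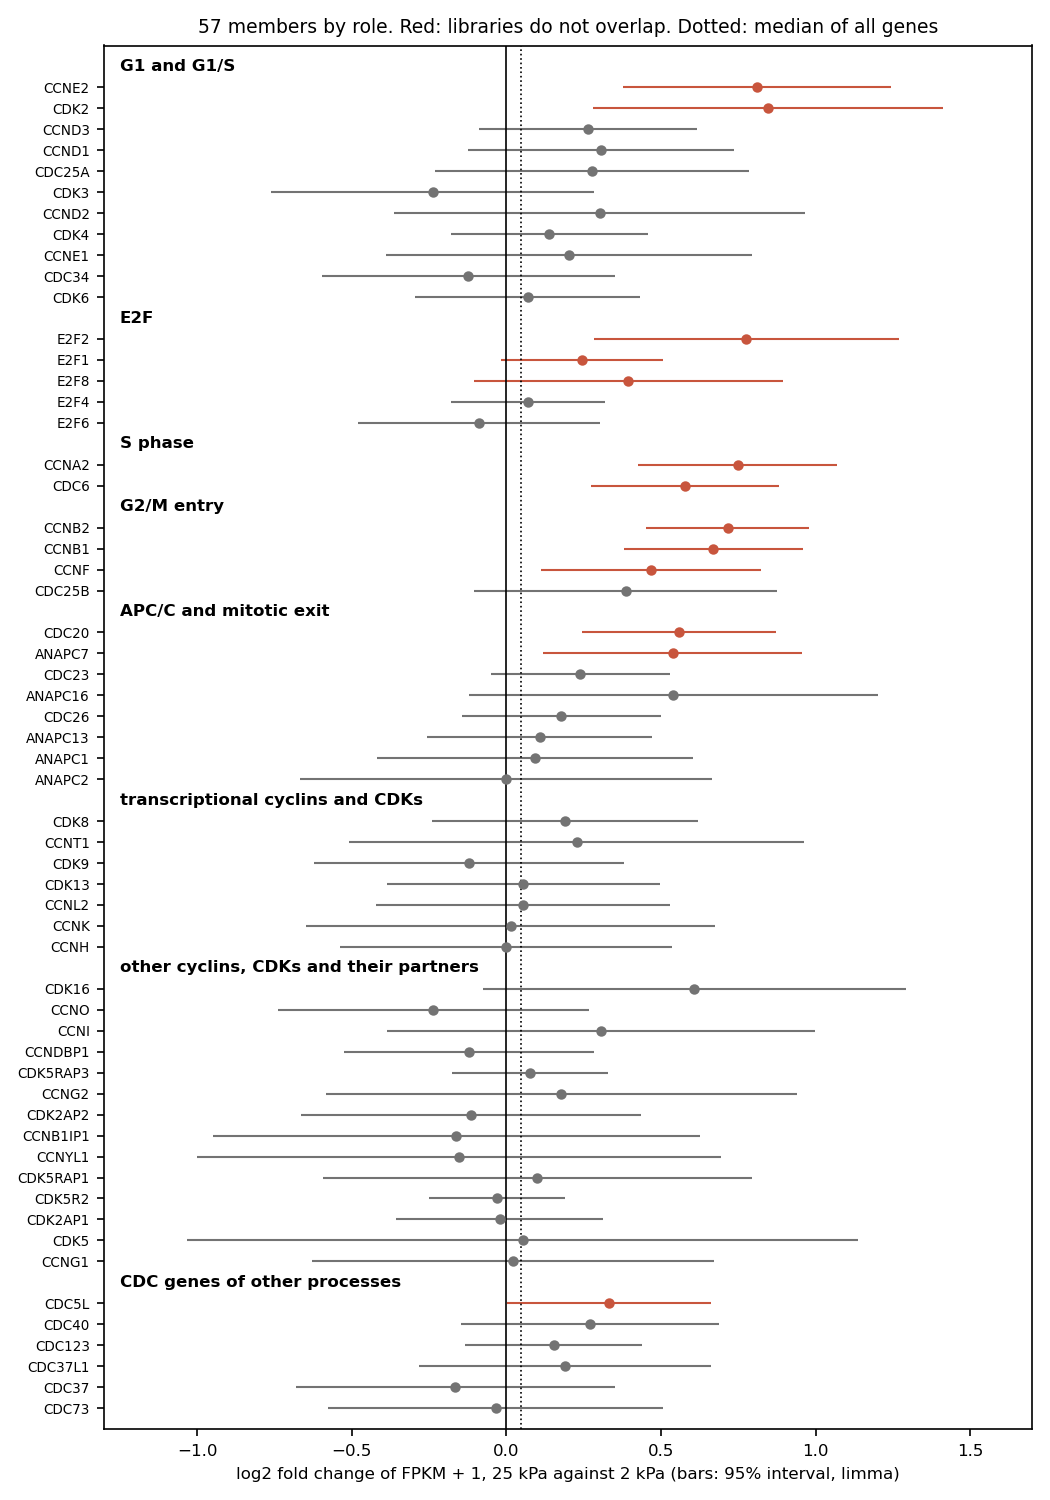
Log2 fold change of log2(FPKM + 1), 25 kPa minus 2 kPa, for each of the 57 members, arranged by role, with the 95% interval from limma (3 libraries per stiffness). The S phase group (CCNA2 and CDC6) and the mitotic entry members lie between 0.39 and 0.75. The transcriptional members lie between −0.12 and 0.23.

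How many members separated depended on the scaling between libraries. When every library was rescaled to the same FPKM sum, 9 members were separated and higher (15.8%, against 5.33% of all genes), CCNDBP1 was separated and lower, and the member median was 0.056, beside −0.019 over all genes. Centring each library on its median left 11 separated and higher (7.82% of all genes), and quantile normalisation left 12 (8.41% of all genes). CCNE2, CDK2, E2F2, CCNA2, CDC6, CCNB1, CCNB2, CDC20 and ANAPC7 stayed separated under all 3 scalings.

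Of the 4 members that act at entry into mitosis, 3 were separated, and CCNB2 had the smallest p of all members. CCNB2 encodes cyclin B2, a partner of CDK1, and was listed at 41.01, 37.69 and 36.42 FPKM in the 2 kPa libraries (replicates 1 to 3) and at 69.67, 64.69 and 57.02 FPKM in the 25 kPa libraries. The lowest stiff library was far above the highest soft one, and the means were 38.4 ± 2.37 and 63.8 ± 6.37 FPKM (SD, n = 3). Its log2 fold change was 0.72 (SE 0.12, 95% interval 0.45 to 0.98), with limma adjusted p = 0.0759, the 21st smallest p in the table. Over the alternatives tried, this adjusted p ran from 0.0628 to 0.334.

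CCNB1 encodes cyclin B1, the main partner of CDK1 at the start of mitosis. Its values were 67.43, 52.58 and 64.24 FPKM at 2 kPa and 103.15, 100.53 and 90.09 FPKM at 25 kPa, again without overlap. The mean was 61.4 ± 7.82 FPKM (SD, n = 3) on the soft gel and 97.9 ± 6.91 FPKM on the stiff gel. The log2 fold change was 0.67 (SE 0.13, 95% interval 0.38 to 0.96, limma adjusted p = 0.108). Thus both B cyclins were about 1.6 times higher in FPKM on the stiff gel (ratios of 1.59 and 1.66), and neither passed the adjusted threshold.

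CCNF encodes cyclin F, which is not known to activate a CDK and serves as the substrate receptor of an SCF ubiquitin ligase in G2. It was listed at 10.99, 12.06 and 8.88 FPKM at 2 kPa and 14.36, 17.15 and 13.71 FPKM at 25 kPa. The groups were close but separate, with a log2 fold change of 0.47 (SE 0.16, limma adjusted p = 0.352). CCNF lost its unadjusted p under 0.05 after rescaling to equal sums and without 2 kPa replicate 3 or 25 kPa replicate 2. The fourth member, CDC25B, is a phosphatase that helps to activate CDK1. Its values of 13.21, 20.57 and 10.48 FPKM at 2 kPa lay on both sides of the 20.46, 18.21 and 18.06 FPKM at 25 kPa, because replicate 2 on the soft gel was high. Its log2 fold change was 0.39 (95% interval −0.10 to 0.88, limma adjusted p = 0.594), and without that library its groups no longer overlapped. CDK1, CDC25C and CDK7 were not among the symbols in the table.

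The role group labelled S phase held only 2 members, CCNA2 and CDC6, and both were separated between the stiffness groups. CCNA2 encodes cyclin A2, the partner of CDK2 and CDK1 in S phase and G2, and was listed at 23.30, 19.47 and 18.58 FPKM at 2 kPa and 40.76, 31.15 and 33.36 FPKM at 25 kPa. Its highest soft library stayed well under its lowest stiff library. The means were 20.5 ± 2.51 and 35.1 ± 5.03 FPKM (SD, n = 3), which gave a log2 fold change of 0.75 (SE 0.14, 95% interval 0.43 to 1.07, limma adjusted p = 0.108). An exon of CCNA2 overlaps one of EXOSC9 on the other strand, and EXOSC9 itself was listed at 3.55 ± 0.387 and 4.14 ± 0.807 FPKM.

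CDC6 loads the MCM helicase at replication origins. Its values were 27.88, 22.46 and 25.43 FPKM on the soft gel and 33.33, 38.86 and 42.48 FPKM on the stiff gel. Every stiff library was higher, with means of 25.3 ± 2.71 and 38.2 ± 4.61 FPKM (SD, n = 3). The log2 fold change was 0.58 (SE 0.13, 95% interval 0.27 to 0.88, limma adjusted p = 0.184). CDC7 and CDC45, which act at the same origins, were not among the symbols in the table.

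**Figure D2:**
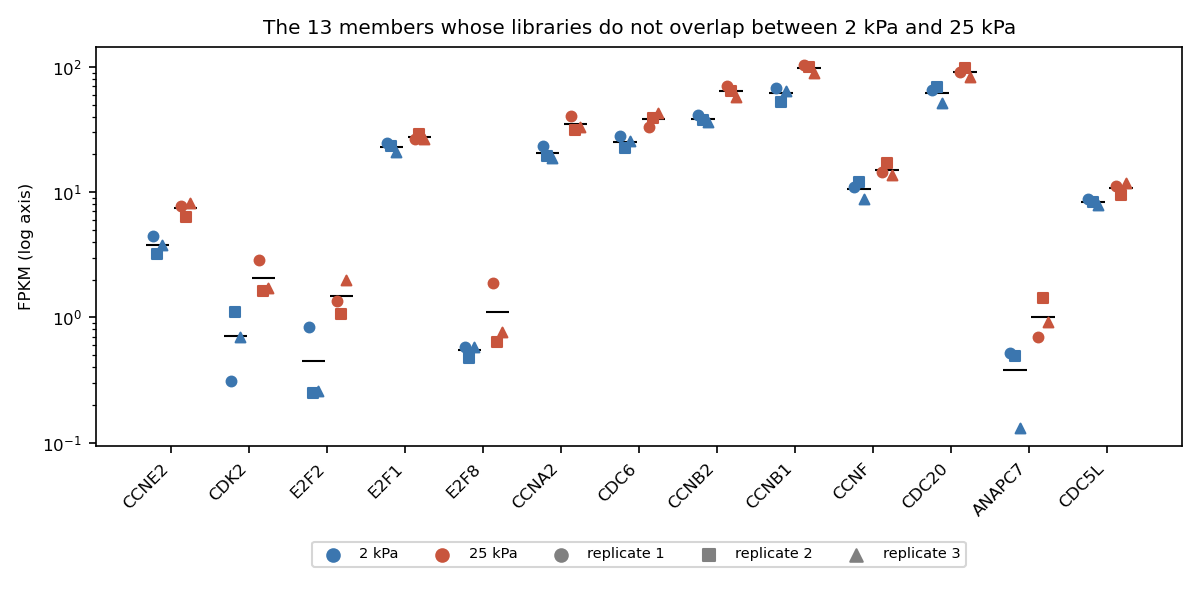
FPKM of the 13 separated members in each library (points, log axis) with the mean of each stiffness (line), 3 libraries at 2 kPa and 3 at 25 kPa. The gap between groups is wide for CCNB2 (41.01 against 57.02 FPKM between the nearest libraries) and narrow for E2F8 (0.58 against 0.64 FPKM).

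The promoters of separated members are shown because the late cell cycle genes are known to share short elements near their start sites. The CCAAT box is bound by NF-Y, the cell cycle genes homology region (CHR) by the MuvB complexes that silence or activate G2/M genes, and E2F sites by the E2F family. A RefSeq promoter window (250 bases before to 50 after the start, GRCh38.p14) was matched by symbol for 50 of the 57 members and for 10 of the 13 separated ones, without CCNE2, CDK2 and E2F8. The 150 bases before the start are given 5′ to 3′ on the gene's strand for CCNB2 (chr15:59104996-59105145, + strand), CCNF (chr16:2429297-2429446, + strand), CDC20 (chr1:43358831-43358980, + strand), CCNB1 (chr5:69167000-69167149, + strand), CDC6 (chr17:40287729-40287878, + strand) and E2F1 (chr20:33686386-33686535, − strand). These are the mitotic members and the S phase and E2F members with the most matches. Capitals mark every match to a CCAAT box, a CHR, a TTTAAA or an E2F motif.
CCNB2: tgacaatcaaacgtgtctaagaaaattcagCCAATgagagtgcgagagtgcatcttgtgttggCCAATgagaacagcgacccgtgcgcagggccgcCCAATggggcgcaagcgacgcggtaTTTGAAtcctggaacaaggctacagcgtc
CCNF: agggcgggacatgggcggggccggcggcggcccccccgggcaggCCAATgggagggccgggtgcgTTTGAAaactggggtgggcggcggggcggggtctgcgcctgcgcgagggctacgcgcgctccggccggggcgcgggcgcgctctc
CDC20: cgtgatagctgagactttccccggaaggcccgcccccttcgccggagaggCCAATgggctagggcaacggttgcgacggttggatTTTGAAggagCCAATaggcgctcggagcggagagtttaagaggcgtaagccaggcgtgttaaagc
CCNB1: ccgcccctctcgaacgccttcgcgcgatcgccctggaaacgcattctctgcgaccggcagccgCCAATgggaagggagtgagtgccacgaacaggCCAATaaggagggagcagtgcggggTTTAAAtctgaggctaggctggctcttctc
CDC6: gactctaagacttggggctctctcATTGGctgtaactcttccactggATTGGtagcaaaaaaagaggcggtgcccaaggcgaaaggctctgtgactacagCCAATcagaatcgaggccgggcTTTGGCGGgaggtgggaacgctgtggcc
E2F1: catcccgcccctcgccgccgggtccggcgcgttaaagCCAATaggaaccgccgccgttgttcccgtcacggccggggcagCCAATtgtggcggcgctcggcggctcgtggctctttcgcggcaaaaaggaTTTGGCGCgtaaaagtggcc

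The motifs were searched as exact letters on both strands. They were CCAAT or its reverse ATTGG for the CCAAT box, TTTGAA or its reverse TTCAAA for the CHR, TTTAAA for the CHR-like variant, and for E2F the letters TTTCCCGC or TTTGGCGC or TTTCGCGC or TTTGGCGG with their reverse complements. Counted from the start site, the CHR of CCNB2 begins at −29, that of CDC20 at −65 and that of CCNF at −85. Each has a CCAAT box before it, at −54, −100 and −106, and CDC20 has a second one at −55 and a second CHR at −178. CCNB1 carries CCAAT boxes at −87 and −55 and TTTAAA at −30, within 1 base of where CCNB2 has its last CCAAT box and its CHR. CDC6 and E2F1 each hold an E2F motif close to the start, at −28 and −20, and E2F2 holds one at −42. The CCNA2 window held a CCAAT box at −56 and neither a CHR nor an E2F motif of these letters.

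Among the 10 separated members with a window, 5 (50%) held a CHR, against 2 (5.0%) of the 40 other members and 15.4% of all 27305 promoters. Of these 5, CCNB2, CDC20 and CCNF were placed above. ANAPC7 held the letters at −236 and CDC5L at 2, after the start. A CCAAT box was found in 8 (80.0%) of the separated members, in 12 (30.0%) of the others and in 35.7% of all promoters. The E2F motif was found in 3 (30.0%), in 5 (12.5%) and in 3.43% of all promoters. The CHR-like TTTAAA was found in 2 (20.0%), in 5 (12.5%) and in 12.3%. Over all 50 members with a window, the shares were 14.0% for the CHR, 40.0% for the CCAAT box, 16.0% for the E2F motif and 14.0% for TTTAAA. The CHR and CCAAT shares of the members as a whole were thus near those of all promoters. Over the 6454 genes of the deposited table with a window, the shares were 9.56% for the CHR, 36.7% for the CCAAT box, 5.66% for the E2F motif and 7.47% for TTTAAA. The members had been split by their values for this count, so these shares are a description with no test, and a match to letters does not establish that a factor binds there. Of the 40 others, ANAPC1 and CDC40 held the CHR letters, and CCNO, CDC23, CDC25A, CDC37 and CDK8 held an E2F motif.

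**Figure D3:**
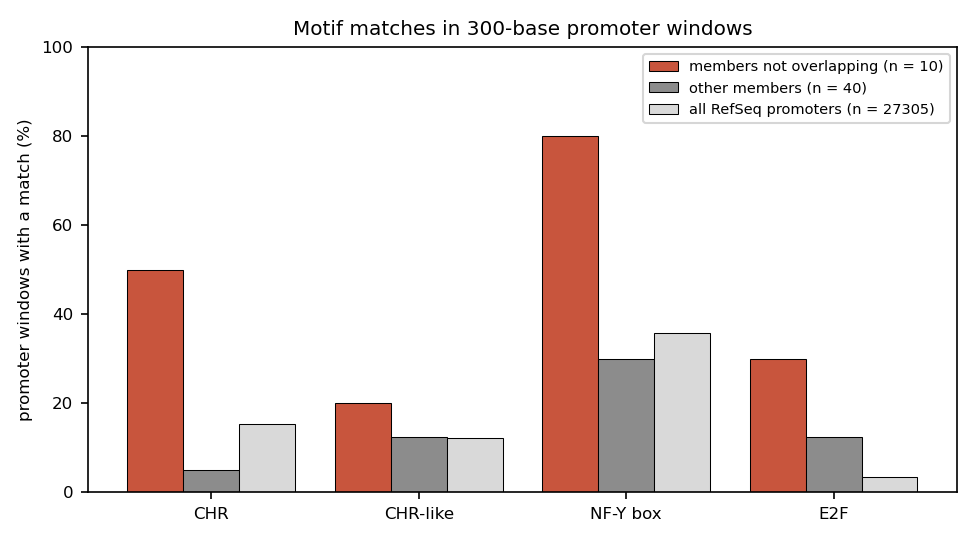
Percent of promoter windows of 300 bases that hold each motif, for the 10 separated members with a window, the 40 other members and all 27305 RefSeq promoters (bars start at 0). The CHR stands at 50% of separated members and 5.0% of the others, and the CCAAT box, drawn as the NF-Y box, at 80.0% and 30.0%. Over all 50 members with a window, not drawn, these shares were 14.0% and 40.0%.

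In G1 and at the G1/S boundary, CCNE2 and CDK2 were separated and the other 9 of 11 members overlapped. The group median was 0.26, with 9 members above 0. CCNE2 encodes cyclin E2, which activates CDK2 at S phase entry, and was listed at 4.45, 3.19 and 3.78 FPKM at 2 kPa and 7.71, 6.37 and 8.20 FPKM at 25 kPa. The groups lay apart, with means of 3.81 ± 0.630 and 7.43 ± 0.947 FPKM (SD, n = 3), nearly doubled at a ratio of 1.95. The log2 fold change was 0.81 (SE 0.19, 95% interval 0.38 to 1.25, limma adjusted p = 0.193). Exons of CCNE2 overlap those of INTS8 on the other strand.

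CDK2, the kinase partner of cyclins E and A, was low, at 0.31, 1.11 and 0.70 FPKM on the soft gel and 2.85, 1.62 and 1.71 FPKM on the stiff gel. Its libraries did not overlap but spread widely within each group. The means were 0.707 ± 0.400 and 2.06 ± 0.686 FPKM (SD, n = 3), and the log2 fold change of 0.85 was the largest of the members (SE 0.25, 95% interval 0.28 to 1.41, limma adjusted p = 0.285). On the log2(FPKM + 1) scale the change of such a low gene is understated. Its exons overlap those of PMEL on the other strand.

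Cyclin E1, the paralog of cyclin E2, did not separate. CCNE1 was listed at 2.52, 2.64 and 4.47 FPKM at 2 kPa and at 3.03, 4.89 and 3.50 FPKM at 25 kPa, with a log2 fold change of 0.20 (95% interval −0.39 to 0.79, limma adjusted p = 0.870). Within a library, log2(FPKM + 1) of CCNE2 exceeded that of CCNE1 by 0.63, 0.20 and −0.19 at 2 kPa and by 1.11, 0.32 and 1.03 at 25 kPa. These differences overlapped between the groups, so a distinct behaviour of the 2 paralogs was not resolved. This pair was compared after their values were seen.

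CCND1, encoding cyclin D1, had by far the highest listed FPKM of the members on both gels. Its values were 328.57, 451.51 and 291.41 FPKM at 2 kPa and 420.72, 400.18 and 486.36 FPKM at 25 kPa. The soft library of replicate 2 lay inside the stiff range, and the means were 357 ± 83.8 and 436 ± 45.01 FPKM (SD, n = 3). The log2 fold change was 0.31 (95% interval −0.12 to 0.74, limma adjusted p = 0.643). Without 2 kPa replicate 2 its groups separated and its unadjusted p was under 0.05. Its partner CDK4 was second by mean listed FPKM, at 92.37, 86.31 and 108.08 FPKM on the soft gel and 90.25, 118.35 and 107.99 FPKM on the stiff gel. CDK4 thus overlapped throughout, with a log2 fold change of 0.14 (95% interval −0.18 to 0.46, limma adjusted p = 0.818).

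The other D cyclins and G1 members were lower in level. CCND2 was listed at 6.18 to 13.33 FPKM at 2 kPa and 10.12 to 17.78 FPKM at 25 kPa, with the log2 fold change at 0.30 and limma adjusted p = 0.809. CCND3 ranged from 0.08 to 0.35 FPKM and from 0.12 to 0.61 FPKM, and CDK6 from 0.17 to 0.54 FPKM and from 0.13 to 0.64 FPKM, with log2 fold changes of 0.26 and 0.07. CDC25A, the phosphatase that activates CDK2, was listed at 2.40, 3.54 and 3.26 FPKM and at 4.06, 4.53 and 3.18 FPKM, with the log2 fold change at 0.28 (limma adjusted p = 0.748). The members below 0 here were CDK3, with 1.68, 1.65 and 1.03 FPKM against 1.27, 1.42 and 0.60 FPKM (−0.24, the lowest of the members), and CDC34, a ubiquitin-conjugating enzyme of the SCF ligases (−0.12). In both the groups overlapped, as in the 7 members above 0 that did not separate.

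Among the E2F factors, the activators E2F1 and E2F2 and the repressor E2F8 were separated, and E2F4 and E2F6 were not. E2F1 was listed at 24.54, 23.54 and 20.95 FPKM on the soft gel and 26.38, 29.22 and 26.64 FPKM on the stiff gel. The gap between the nearest libraries was small, with means of 23.0 ± 1.85 and 27.4 ± 1.57 FPKM (SD, n = 3). The log2 fold change was 0.24 (95% interval −0.02 to 0.51, limma adjusted p = 0.525). E2F1 stayed apart after quantile normalisation but overlapped after rescaling to equal sums or centring on medians.

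E2F2 was listed at 0.84, 0.25 and 0.26 FPKM at 2 kPa and 1.34, 1.07 and 2.00 FPKM at 25 kPa. The ratio of the means, 0.45 ± 0.338 and 1.47 ± 0.478 FPKM (SD, n = 3), was 3.27, the highest of the members, and the log2 fold change was 0.78 (SE 0.22, limma adjusted p = 0.259). E2F8, an atypical E2F that represses E2F1 targets, was listed at 0.58, 0.47 and 0.58 FPKM and at 1.89, 0.64 and 0.76 FPKM. Its separation rested on a narrow gap and its size on 25 kPa replicate 1, with the log2 fold change at 0.39 (limma adjusted p = 0.594) and at 0.14 without that library. E2F4, a mainly repressive factor with the highest listed FPKM of the E2F genes here, was listed at 32.5 ± 2.31 and 34.1 ± 1.75 FPKM (SD, n = 3). Its log2 fold change was 0.07 (95% interval −0.18 to 0.32). E2F6, a repressor that needs no retinoblastoma protein, was listed at 8.07 ± 1.20 and 7.53 ± 0.998 FPKM, a log2 fold change of −0.09. E2F7 was not among the symbols in the table.

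In the APC/C, the coactivator CDC20 stood apart, while most core subunits did not. CDC20 was listed at 65.08, 69.00 and 51.22 FPKM at 2 kPa and 90.54, 98.52 and 83.58 FPKM at 25 kPa. The groups were clear of each other, with means of 61.8 ± 9.34 and 90.9 ± 7.48 FPKM (SD, n = 3). The log2 fold change was 0.56 (SE 0.14, 95% interval 0.24 to 0.87, limma adjusted p = 0.211). Of the 7 subunits, ANAPC7 alone was separated, at 0.52, 0.49 and 0.13 FPKM on the soft gel and 0.69, 1.43 and 0.91 FPKM on the stiff gel. Its log2 fold change was 0.54 (SE 0.18, limma adjusted p = 0.356), and its unadjusted p was no longer under 0.05 without 2 kPa replicate 3 or 25 kPa replicate 2.

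The other 6 subunits overlapped between the groups. CDC23, a structural subunit, overlapped through 1 library of each group, at 17.89, 15.42 and 15.23 FPKM against 20.61, 17.48 and 19.75 FPKM, with the log2 fold change at 0.24 and limma adjusted p = 0.575. The small subunits ANAPC16, CDC26 and ANAPC13 had log2 fold changes of 0.54, 0.18 and 0.11, and ANAPC16 was low in 2 kPa replicate 2 (0.46 FPKM, against 1.85 and 1.67 FPKM in the other soft libraries). ANAPC1, the largest scaffold subunit, was listed at 7.65, 9.80 and 6.90 FPKM and at 12.11, 6.83 and 7.71 FPKM, with a log2 fold change of 0.09 that turned to −0.02 after rescaling to equal sums. ANAPC2, the cullin-like subunit, was listed at 3.75 ± 1.95 and 3.50 ± 0.199 FPKM, with a log2 fold change of −0.001. Within each library, log2(FPKM + 1) of CDC20 exceeded the mean of the 7 subunits by 3.15, 3.24 and 2.89 at 2 kPa and by 3.36, 3.55 and 3.31 at 25 kPa, a difference of 0.32 between the groups without overlap. This contrast was set up after the values were seen and was computed with a pseudocount of 1 only. With a pseudocount of 0.01 the log2 fold change was 1.55 for ANAPC7 and 0.57 for CDC20. The size of the contrast thus depends on the pseudocount, and its lack of overlap is given for a pseudocount of 1 alone. ANAPC11, CDC16 and CDC27 were not among the symbols in the table.

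The 7 cyclins and CDKs that act on RNA polymerase II showed no separated member, and their median was 0.05, equal to that of all genes at this rounding. CDK9, the kinase that releases paused polymerase, had the highest listed FPKM of these, at 12.64, 21.13 and 10.86 on the soft gel and 12.41, 13.12 and 13.71 on the stiff gel. Replicate 2 was high on the soft gel, and the log2 fold change was −0.12 (95% interval −0.62 to 0.38). CCNT1, its cyclin, was listed at 1.83 ± 0.726 and 2.39 ± 1.24 FPKM (SD, n = 3) with a log2 fold change of 0.23. CCNH, the cyclin of the CDK-activating kinase, had equal means of 0.407 FPKM on both gels. CDK8 of the Mediator complex, CDK13, its cyclin CCNK and the splicing-linked CCNL2 had log2 fold changes of 0.19, 0.05, 0.01 and 0.05. Rescaling to equal sums moved the group median to −0.04 and quantile normalisation to −0.002.

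Cyclins, CDKs and partners with other roles were spread evenly about 0, with 7 of 14 above it, a median of 0.0002 and no separated member. The highest was CDK16, a kinase of the PCTAIRE family, at 1.25, 1.39 and 0.49 FPKM against 1.10, 2.36 and 3.02 FPKM, with the log2 fold change at 0.61 and limma adjusted p = 0.554. CDK16 overlapped through 25 kPa replicate 1. The lowest was CCNO, a cyclin known for the formation of cilia in multiciliated cells, at 2.63, 2.34 and 1.68 FPKM against 1.52, 1.62 and 2.01 FPKM, with the log2 fold change at −0.24 (limma adjusted p = 0.801). CCNO did separate, and was lower on the stiff gel, after centring on medians and after quantile normalisation. CDK5, best known in neurons, was listed at 3.43, 1.60 and 3.48 FPKM and at 0.72, 5.10 and 4.49 FPKM, on log2(FPKM + 1) the widest SD within a group of any member, with a log2 fold change of 0.05 (95% interval −1.03 to 1.14).

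The remaining 11 of these had log2 fold changes from −0.16 to 0.31. CCNI, at 11.04, 22.22 and 9.29 FPKM against 17.95, 12.30 and 20.58 FPKM, gave 0.31, and CCNG2 gave 0.18. CCNB1IP1, CCNYL1, CCNDBP1 and CDK2AP2 gave −0.16, −0.15, −0.12 and −0.11. CDK5RAP1, CDK5RAP3 and CCNG1 gave 0.10, 0.08 and 0.02, and CDK5R2 and CDK2AP1 gave −0.03 and −0.02. None of these intervals excluded 0.

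Of 6 genes that carry a CDC symbol but act elsewhere, CDC5L was separated. CDC5L belongs to a core complex of the spliceosome and was listed at 8.79, 8.40 and 7.94 FPKM at 2 kPa and 11.18, 9.46 and 11.87 FPKM at 25 kPa, a log2 fold change of 0.33 (SE 0.15, limma adjusted p = 0.490). Its unadjusted p was under 0.05 in 4 of 14 alternatives, the fewest of the 11 members that had it. CDC40, another splicing factor, gave 0.27, CDC123, an assembly factor of the translation initiation factor eIF2, gave 0.15, and CDC37L1 gave 0.19. CDC37, the HSP90 cochaperone of kinases, was listed at 2.53, 2.62 and 2.22 FPKM against 2.30, 2.54 and 1.5 FPKM, with the log2 fold change at −0.16 (limma adjusted p = 0.879). CDC73, of the PAF1 complex, gave −0.03, so that the direction was not shared by the 6 genes.

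Compared within a library on log2(FPKM + 1), the mitotic entry members stood higher over the G1 members on the stiff gel. The mean log2(FPKM + 1) of the 4 mitotic entry members exceeded that of the 11 G1 and G1/S members by 2.02, 1.99 and 1.78 at 2 kPa and by 2.25, 2.28 and 2.17 at 25 kPa. With this pseudocount of 1 the groups did not overlap, and the difference was 0.30. With a pseudocount of 0.01 the difference was 0.15, and overlap between the groups was not examined at that setting. A different measure, over fewer genes, was the share of the summed FPKM of cyclins D, E, A2 and B. The B cyclins made up 20.6 ± 4.41% of it at 2 kPa and 24.7 ± 2.92% at 25 kPa (SD, n = 3), with overlap. D cyclins made up most of this sum, at 73.7 ± 5.54% and 68.3 ± 3.35%. E2F1 set against E2F4 differed by −0.43, −0.52 and −0.49 on the soft gel and by −0.33, −0.30 and −0.29 on the stiff gel, in log2(FPKM + 1), without overlap. CCNB1 set against CCND1 differed by −2.27, −3.08 and −2.16 on the soft gel and by −2.02, −1.98 and −2.42 on the stiff gel, and CDK2 set against CDK4 by −6.16, −5.37 and −6.00 and by −4.57, −5.51 and −5.33. These 2 pairs overlapped between the gels. The shares and the 3 pairs were chosen after the values were seen.

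**Figure D4:**
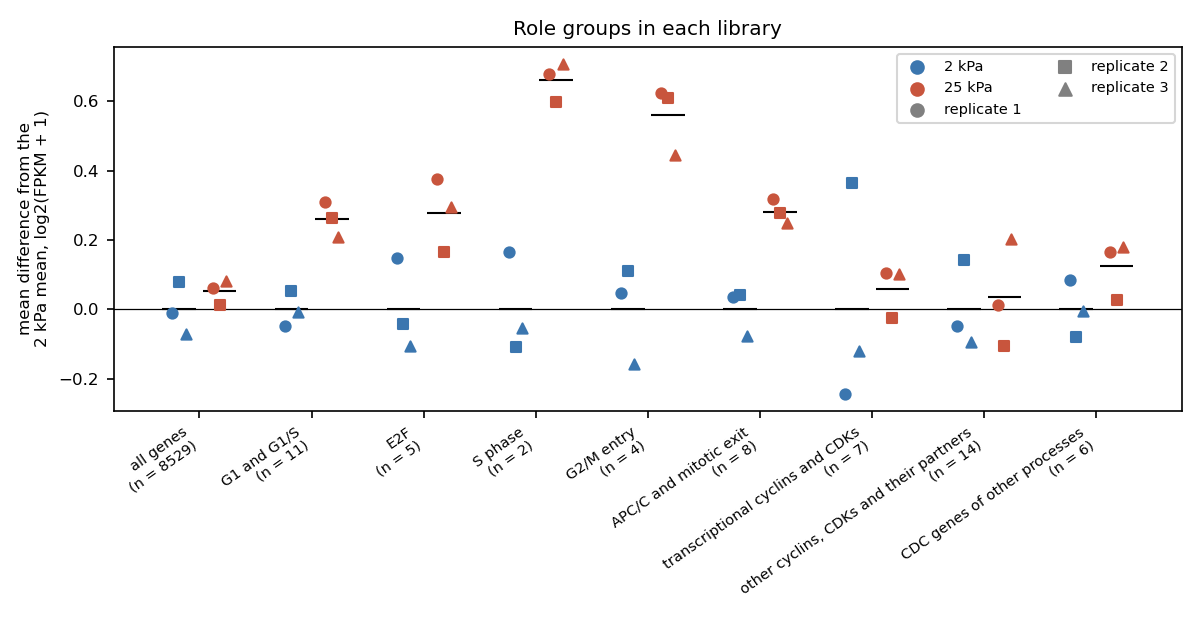
Mean difference in log2(FPKM + 1) from the 2 kPa mean for each role group in each of the 6 libraries (points), with the mean of each stiffness (line). The S phase group (CCNA2 and CDC6) lies at 0.60 to 0.71 and mitotic entry members at 0.45 to 0.62 in the stiff libraries. The transcriptional and other members overlap the soft libraries, and the direction of these 2 groups turns under other scalings.

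By level, the order of the members was similar on both gels. At 2 kPa CCND1 and CDK4 were followed by CDC20 (61.8 FPKM) and CCNB1 (61.4 FPKM), which did not differ beyond their spread, and then by CDC123 (43.7 FPKM) and CCNB2 (38.4 FPKM). At 25 kPa CCNB1 (97.9 FPKM) lay within the spread of CDK4 (105.5 FPKM) and CDC20 (90.9 FPKM), and CCNB2 (63.8 FPKM) had passed CDC123 (48.4 FPKM). The separated members were not confined to either end of this range. A mean of at least 10 FPKM was held by 7 of the 13, against 19 of all 57 members. E2F2, E2F8, CDK2 and ANAPC7 lay near 1 FPKM. FPKM are scaled per length, but the table does not state which transcripts of a gene they cover. Of the 13, 6 had an exon that overlaps another annotated gene, and CCNB2 and CDC20 have a pseudogene of their name, so that reads could have been shared. The strand setting of the authors' counting is not given in the sources used here.

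The proteins that work with these genes were read from a list of 47 partners, of which 32 were in the table. None passed the adjusted threshold, 6 were higher at an unadjusted p under 0.05 and none was lower, 7 were separated and higher and none lower, and the median log2 fold change was 0.26. Over all genes, 6.96% and 3.19% were higher and lower at that level, and 11.2% and 4.78% were separated and higher or lower. CKS1B and CKS2, the small subunits of CDK complexes, were listed at 91.4 ± 19.8 and 113.7 ± 17.0 FPKM at 2 kPa and at 154.3 ± 19.0 and 174.7 ± 9.47 FPKM at 25 kPa (SD, n = 3), with log2 fold changes of 0.76 and 0.63 (limma adjusted p = 0.186 and 0.170). Both were separated between the groups. Of the inhibitors and substrates of the APC/C, FBXO5 (EMI1) was listed at 7.06, 5.65 and 3.99 FPKM against 13.21, 9.64 and 9.57 FPKM, with the log2 fold change at 0.86 (limma adjusted p = 0.220). Securin, PTTG1, was listed at 164.64, 118.20 and 161.22 FPKM against 280.11, 247.60 and 203.06 FPKM, with the log2 fold change at 0.72 (limma adjusted p = 0.206). In these the stiff libraries were again all higher.

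MYBL2 encodes B-MYB, which joins MuvB to activate G2/M genes, and was separated, at 23.92, 29.82 and 19.95 FPKM against 32.87, 33.09 and 36.16 FPKM (log2 fold change 0.47, limma adjusted p = 0.333). FOXM1, the other activator in this path, was not. It was listed at 0.22, 1.45 and 0.72 FPKM against 0.12, 0.56 and 0.17 FPKM, with the log2 fold change at −0.44 (limma adjusted p = 0.590). The kinases PLK1 and AURKA, which act at mitotic entry, gave 0.48 and 0.61 (limma adjusted p = 0.511 and 0.516), and AURKA and LIN54 were the other separated partners. BORA, the cofactor of AURKA, gave 0.74 (limma adjusted p = 0.429) and overlapped. RB1, the retinoblastoma protein, gave 0.45 (limma adjusted p = 0.564). Of the 11 replication licensing partners in the table, 9 were above 0 and none was separated, with MCM2 at 0.22 and MCM7 at 0.27, whereas CDC6, which loads this helicase, was separated.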

How the data were processed

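Total RNA of SW480 cells on 2 kPa and 25 kPa hydrogels was sequenced on an Illumina HiSeq platform. The authors deposited 1 FPKM value per gene and library, without pooling, and gave quality assessment, coding prediction and normalisation to FPKM as the steps. The submitters' processing notes name HISAT, StringTie, Bowtie2, RSEM and the build hg18. Which of these made the FPKM, and the annotation, are not given in the sources used here. The study names DESeq2, which needs counts and was not run. Samples were grouped by the stiffness in their labels, and 0 columns of other samples were present.

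Here log2(FPKM + 1) of all 8529 genes, unfiltered, was fitted with limma 3.58.1 in R 4.3.3 (lmFit, eBayes with a variance trend, two-sided, 25 kPa against 2 kPa, no covariate), with Benjamini-Hochberg adjustment over all genes and a threshold of 0.05. Fold changes are on this scale, which understates those of low genes. Separated means that every library of 1 stiffness lay above every library of the other. Promoter windows came from RefSeq (GRCh38.p14) and exon overlaps from a GRCh38 annotation. No coordinates from hg18 were used. Python 3.11.15 with pandas 2.3.3, numpy 2.4.6, scipy 1.17.1 and matplotlib 3.10.9 was used. The fit was tested on simulated data.

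Members given singly were the core genes of each phase, those at an unadjusted p under 0.05, and the 3 at each end of the log2 fold changes. All others were given with their role group. The members, roles, partners, markers and motifs were chosen with earlier results of these data known. As alternatives, the pseudocount was set to 0.1 or 0.01, genes under a mean FPKM of 1 were dropped, FPKM were rescaled to equal sums, and the others were median centring, quantile normalisation, a fit without the variance trend, a block for the replicate number, and each library left out. For the partners they were added after seeing the data.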

Additional observations from a re-analysis of the deposited data

How the results depend on the processing

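Under each of the 14 alternatives 0 members passed the adjusted threshold, and CCNA2, CCNB1, CCNB2, CCNE2, CDC20, CDC6 and CDK2 kept an unadjusted p under 0.05. Leaving out 1 library gave 8 to 13 members higher at that level (5.02% to 8.5% of all genes). It gave 15 to 19 separated and higher (14.8% to 21.2% of all genes), since 2 libraries against 3 separate more often. Separated and lower members numbered 1 after rescaling to equal sums (7.79% of all genes), 2 after median centring (7.03%), 1 after quantile normalisation (7.64%) and 0 to 2 with a library left out (7.22% to 10.2%). The member median was 0.25 with a pseudocount of 0.01, 0.056 rescaled and 0.094 quantile normalised. For G1 and G1/S it was 0.18 rescaled, 0.21 centred, 0.13 quantile normalised and 0.17 to 0.25 with a library left out. For E2F it was 0.070 at a mean FPKM of at least 1 (without E2F2 and E2F8 in the fit) and 0.12 rescaled, and for the S phase members 0.54 rescaled. For the APC/C it was 0.089 rescaled, 0.13 quantile normalised and 0.19 to 0.27 with a library left out. For the CDC genes of other processes it was 0.067 rescaled and 0.079 to 0.23 with a library left out, the lowest without 2 kPa replicate 2. The difference between mitotic entry and G1 members was 0.19 and 0.15 with pseudocounts of 0.1 and 0.01. The cause of these shifts was not tested. Requiring a mean FPKM of at least 1 left 49 members, 10 separated and higher (20.4%, against 13.3% of all genes) and 8 higher at an unadjusted p under 0.05 (16.3%, against 8.49%). Of all genes at an unadjusted p under 0.05, 68.6% were higher at 25 kPa, and 42.7% rescaled, 49.9% centred and 51.1% quantile normalised.

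Of the 32 partners, 4 were separated and higher when rescaled (5.33% of all genes). With a library left out, 7 to 18 were (14.8% to 21.2% of all genes), with 18 without 25 kPa replicate 2 (21.2%). Those separated and lower numbered 0 to 2 with a library left out (7.22% to 10.2% of all genes). Partners higher at an unadjusted p under 0.05 numbered 5 to 11 with a library left out (5.02% to 8.5% of all genes), with 11 without 2 kPa replicate 2 (8.5%). Those lower numbered 0 to 1 (2.27% to 3.51% of all genes). The replicate numbers are shared by both groups. The deviations of same-numbered libraries correlated at 0.11, −0.27 and −0.12, and not every library correlated best with its own number. With 3 libraries per stiffness, these values cannot decide whether same-numbered libraries were paired. With the replicate block 10 members were higher at an unadjusted p under 0.05 (5.58% of all genes), as CDC5L lost it. In that fit 0 members passed the adjusted threshold, and 1 partner was lower at the unadjusted level (2.78% of all genes). Depth is unknown, so low values such as those of CDK2, E2F2, E2F8 and ANAPC7 carry no counting error.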
